A study of Mus musculus with 12 samples.

Results

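Of 29785 intervals that carried an H3K4me3 peak in at least 1 of 4 regions of the embryonic mouse forebrain, 547 were marked in the caudal ganglionic eminence (CGE) alone. The intervals were made by merging all peaks that overlapped or touched, and a member was an interval with a CGE peak and no peak of the medial ganglionic eminence (MGE), the lateral ganglionic eminence (LGE) or the cortex (CTX). The members were therefore chosen by the presence and absence of the called peaks themselves, and being in 1 list is not a finding. They make up 1.84% of all intervals and 3.08% of the 17752 CGE peaks, and every one of them holds 1 CGE peak. Their position, their sequence and their neighbouring genes were not used by the rule.

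H3K4me3 was profiled by CUT&Tag, in which an antibody against the histone mark tethers a transposase that cuts and tags the chromatin around it. Tissue of wild-type C57BL/6J embryos at E12.5 was dissected into the 4 regions, the cortex being its somatosensory part, with 2 biological replicates of 100000 nuclei in each. The protocol in the labels also names E14.5 without tying it to a region, and it mentions a pooling of equal numbers of nuclei of the 4 regions, although the libraries are labelled by region. The replicates of a region were merged before peaks were called, so each region is 1 list and no spread between replicates can be given. Dissected tissue is a mixture of progenitors, young neurons and other cells, and a weak mark in many nuclei cannot be told apart from a strong mark in few. Shares carry Wilson 95% intervals and medians carry 95% intervals from order statistics. Both cover counting error only, the files do not give the reads under each peak, and no difference between lists was tested.

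The CGE is the caudal part of the ventral telencephalon, where progenitors give rise to interneurons that migrate to the cortex, hippocampus and amygdala. H3K4me3 sits on nucleosomes around transcription start sites (TSSs) of active genes and, together with H3K27me3, on promoters of silent developmental regulators. It is strongest over CpG-rich promoters, and low levels are also found at enhancers.

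The sequences under 9 members are shown because the results turn on these genes. They lie inside Nr2f2 and Nr2f1, which encode the orphan nuclear receptors COUP-TFII and COUP-TFI, at the neuropeptide genes Sst and Trh, and at the homeobox genes Hoxa4 and Barhl1. The remaining ones are strong members at Lgi1 and Ect2l and the strongest member far from any TSS, nearest to Zbtb8b. Each is read 5′ to 3′ on the strand of the named gene from RefSeq's GRCm38.p6 assembly and has its CpG dinucleotides in capitals. It is the stretch of up to 200 bp nearest the middle of the interval that holds no annotated untranslated region. The positions on GRCm38 are chr7:70365794-70365993 (minus strand) for Nr2f2, chr13:78189792-78189991 (minus) for Nr2f1, chr16:23890523-23890722 (minus) for Sst, chr6:92244651-92244841 (minus) for Trh and chr6:52192042-52192241 (minus) for Hoxa4. The others are chr2:28917355-28917554 (minus) for Barhl1, chr19:38264336-38264535 (plus) for Lgi1, chr10:18139435-18139634 (minus) for Ect2l and chr4:129406493-129406692 (minus) for Zbtb8b.
Nr2f2: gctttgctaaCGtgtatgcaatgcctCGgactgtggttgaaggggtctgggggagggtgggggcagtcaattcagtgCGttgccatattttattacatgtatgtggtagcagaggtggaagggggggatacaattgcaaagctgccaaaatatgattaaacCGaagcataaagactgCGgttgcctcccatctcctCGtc
Nr2f1: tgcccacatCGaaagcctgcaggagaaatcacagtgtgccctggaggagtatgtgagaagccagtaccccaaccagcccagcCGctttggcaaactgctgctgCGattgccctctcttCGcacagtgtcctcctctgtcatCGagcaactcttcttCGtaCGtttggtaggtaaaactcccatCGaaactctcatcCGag
Sst: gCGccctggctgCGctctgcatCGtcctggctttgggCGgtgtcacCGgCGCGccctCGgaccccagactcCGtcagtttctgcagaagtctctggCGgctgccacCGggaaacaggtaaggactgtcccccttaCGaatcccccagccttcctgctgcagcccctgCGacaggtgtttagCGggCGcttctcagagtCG
Trh: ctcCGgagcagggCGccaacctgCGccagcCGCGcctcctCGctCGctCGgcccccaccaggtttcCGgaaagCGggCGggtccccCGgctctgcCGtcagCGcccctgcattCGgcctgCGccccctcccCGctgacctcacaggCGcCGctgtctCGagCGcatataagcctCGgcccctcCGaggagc
Hoxa4: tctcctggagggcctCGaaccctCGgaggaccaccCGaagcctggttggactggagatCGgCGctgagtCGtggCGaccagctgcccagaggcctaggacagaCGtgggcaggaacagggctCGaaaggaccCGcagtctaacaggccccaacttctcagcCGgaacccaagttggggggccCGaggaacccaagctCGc
Barhl1: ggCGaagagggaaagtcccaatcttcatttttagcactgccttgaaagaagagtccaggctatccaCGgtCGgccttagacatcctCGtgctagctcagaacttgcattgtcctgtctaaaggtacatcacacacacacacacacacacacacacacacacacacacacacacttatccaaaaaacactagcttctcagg
Lgi1: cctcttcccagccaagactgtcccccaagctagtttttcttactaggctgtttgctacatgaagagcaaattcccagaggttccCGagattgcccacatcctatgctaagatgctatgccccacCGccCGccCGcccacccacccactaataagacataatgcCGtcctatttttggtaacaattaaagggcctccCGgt
Ect2l: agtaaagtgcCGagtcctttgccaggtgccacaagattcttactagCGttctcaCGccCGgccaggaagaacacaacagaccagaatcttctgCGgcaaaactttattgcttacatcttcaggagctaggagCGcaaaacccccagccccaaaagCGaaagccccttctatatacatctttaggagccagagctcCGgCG
Zbtb8b: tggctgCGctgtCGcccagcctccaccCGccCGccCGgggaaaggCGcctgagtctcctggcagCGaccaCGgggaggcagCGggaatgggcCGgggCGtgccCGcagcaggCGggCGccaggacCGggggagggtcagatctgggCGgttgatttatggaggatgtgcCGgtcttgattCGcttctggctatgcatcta
The number of CpGs in these stretches ranged from 4 at Barhl1 to 23 at Trh. The stretches at Sst, Trh and Zbtb8b held 16, 23 and 18 CpGs, while those inside Nr2f2 and Nr2f1 held 6 and 9.

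The CGE-alone intervals were short and weakly enriched. Their median width was 393 bp (375 to 418 bp), with 394 of the 547 under 500 bp and 33 of at least 1000 bp. The widths ran from 242 to 3266 bp, and the middle 50% lay between 306.5 and 545 bp. The 17205 CGE peaks that lay in intervals of 2 to 4 lists had a median width of 1261 bp (1252 to 1272 bp). The authors' fold enrichment, the ratio of reads to the local background averaged over a peak, had a median of 2.72 (2.70 to 2.75) in the members and 5.91 (5.87 to 5.96) in the other CGE peaks. The highest fold of a member was 5.48, and 12 members reached 4. The authors' −log10 q, which grows with the number of reads, had a median of 2.35 (2.23 to 2.51) in the members, with a range of 1.04 to 13.2. In the other CGE peaks the median was 84.8. Strength and width bear on whether another list holds an overlapping peak, so these values describe the choice of the members.

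Most strong CGE peaks were shared with at least 1 other list. Among CGE peaks with a −log10 q of 1 to 1.5, 59 of 127 were alone (46.5%, interval 38.0 to 55.1%). The share was 27.9% at 1.5 to 2, 22.6% at 2 to 3 and 11.5% at 3 to 5. It was 2.77% at 5 to 10 and 0.464% at 10 to 20, where 6 of 1293 peaks were alone. None of the 12536 CGE peaks at 20 or above was alone, which allows a share of up to 0.0306% by the Wilson interval. Ranked by −log10 q, the first member stood at place 13344 of 17752. The members covered 265 kb, or 1.13% of the bases in the CGE list.

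**Figure D1:**
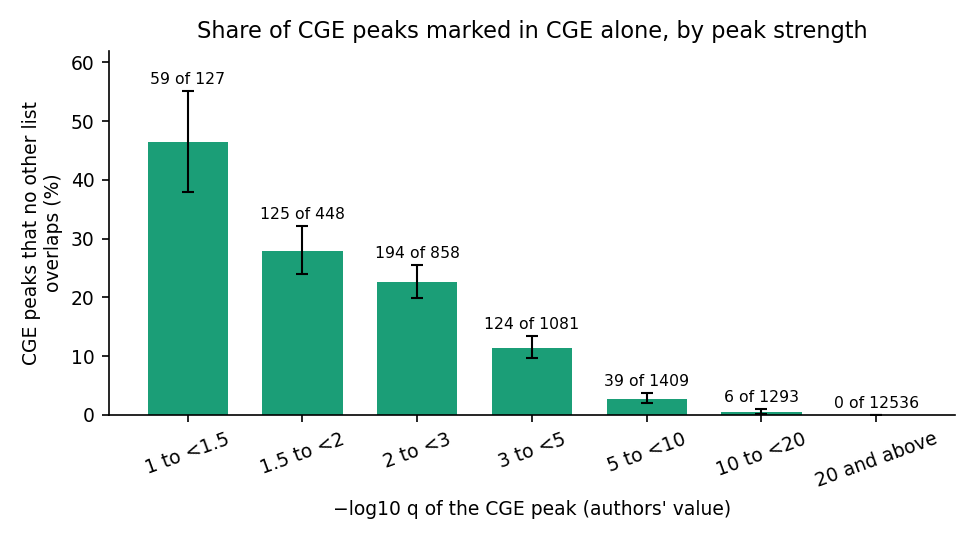
The bars give the share of CGE peaks that overlapped or touched no peak of another list, in classes of the authors' −log10 q, and the lines give Wilson 95% intervals. The share falls from 46.5% in the weakest class to 0 of 12536 peaks in the strongest.

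Beside the 547 CGE-alone intervals, 6562 were in the MGE list alone, 3571 in CTX alone and 326 in LGE alone. These numbers go with properties of the whole lists. The narrowest peak was 242 bp in CGE and 243 bp in LGE, but 114 bp in MGE and 122 bp in CTX. The median −log10 q of a whole list was 79.3 (CGE), 40.0 (LGE), 8.57 (CTX) or 5.19 (MGE). The depths the study's methods state also differ between regions, with CGE deeper than LGE and MGE. Without peaks under 500 bp the sets numbered 785 (CGE), 545 (MGE), 530 (CTX) and 370 (LGE), so that the CGE-alone set was then the largest. With each list limited to 17284 peaks by highest fold they numbered 692 (CGE), 1713 (MGE), 2002 (CTX) and 670 (LGE). The part of depth in the numbers was not tested. The nearest peak of another list was at a median of 7597 bp (6319 to 9442 bp) from a member. It lay under 1 kb from 54 members, within 2 kb of 114 and over 10 kb from 243 (44.4%). The same median was 8156.5 bp in LGE-alone, 16711 bp in CTX-alone and 23366 bp in MGE-alone intervals. The nearest other CGE peak was at a median of 17039 bp (13060 to 19774 bp) from a member. Just inside the rule was a 341-bp interval centred in an exon and nearest to the nuclear transport gene Rangap1. It lay 3 bp from a peak of another list. Just outside were 6 CGE peaks joined to another list by 3 to 9 bp. They were nearest to Slc26a5, Kat6b, Id1, Myo15, Gm49473 and Gm17118, measured 286 to 542 bp and had a −log10 q of 1.39 to 5.49.

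CGE-alone intervals were found both at promoters and away from them. Of the 547, 105 covered an annotated TSS, 155 more lay within 2 kb of one, 153 lay 2 to 10 kb away, 116 lay 10 to 50 kb away and 18 lay farther. The share within 2 kb was 47.5% (43.4 to 51.7%). The same share was 36.8% (31.8 to 42.2%) in the LGE-alone intervals, 19.97% (18.7 to 21.3%) in the CTX-alone intervals and 16.2% (15.3 to 17.1%) in the MGE-alone intervals. In the CGE peaks of intervals shared by all 4 lists it was 88.4%, and in those of intervals of 2 or 3 lists it was 48.3% (46.3 to 50.3%), close to the members. The median distance to the nearest TSS was 2321 bp (1753 to 3108 bp) in the members, 5040.5 bp in LGE-alone, 9441 bp in CTX-alone and 10600 bp in MGE-alone intervals. For CGE peaks in intervals of 2 or 3 lists it was 2350 bp (1938 to 2865 bp), and the interval overlapped that of the members. Members lay nearer to TSSs than MGE-alone and CTX-alone intervals. This held with gene 5′ ends only, with equal list lengths and without peaks under 500 bp, all compared after the values were seen. The order of CGE and LGE depended on the setting. The CGE share was the higher with gene 5′ ends only (32.4% against 24.8%), with equal lengths by −log10 q (41.4% against 38.5%) and without peaks under 500 bp (49.8% against 44.1%). With equal lengths by highest fold the LGE share was the higher, at 46.4% against 40.0%. Counting only the 5′ end of each gene gave 32.4% and a median distance of 5975 bp for the members, so part of them lay at internal TSSs.

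**Figure D2:**
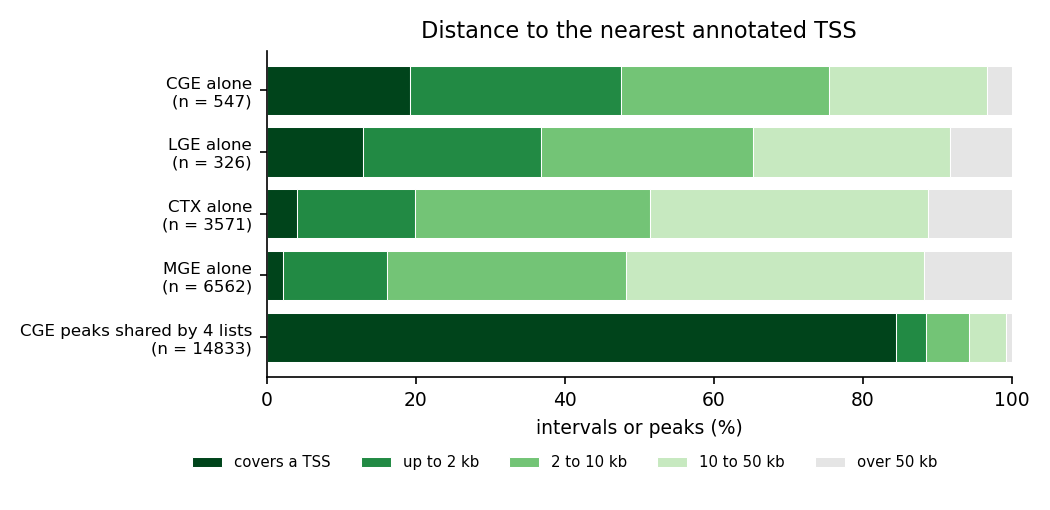
Stacked bars give the percentage of intervals (of 1 list alone) or peaks (CGE peaks in intervals of 4 lists) in each class of distance to the nearest annotated TSS. In CGE-alone intervals 19.2% covered a TSS and 47.5% lay within 2 kb, against 84.5% and 88.4% of the shared CGE peaks.

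Around the nearest TSS, members lay more often downstream than upstream. Of the 260 within 2 kb, 105 covered the TSS, 100 lay downstream of it and 55 upstream. The sides were not counted for the other sets. By the centre base of the interval, 163 of the 547 lay in an exon (29.8%), 241 in an intron (44.1%) and 143 between genes (26.1%). An interval centred outside an exon can still touch one. The nearest TSS belonged to a protein-coding gene for 372 of 547 members (68.0%, 64.0 to 71.8%) and for 198 of the 260 within 2 kb (76.2%, 70.6 to 80.9%). Long intergenic noncoding RNAs were nearest for 44, processed pseudogenes for 36, antisense RNAs for 19 and microRNAs for 10. The members were spread over the 19 autosomes and the sex chromosomes. The share of a chromosome's CGE peaks that were alone ran from 1.98% on chromosome 14 to 4.37% on chromosome 15, apart from Y, which had 1 of 4.

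A promoter, taken as the 2 kb upstream of any annotated TSS with the TSS itself, was touched by 180 members. The genes numbered 197, which is 0.355% of the 55450 annotated genes, and 140 of them encode proteins and 33 are long noncoding RNAs. Of the members, 25.6% (22.1 to 29.4%) touched a promoter of a protein-coding gene. With the 5′ end of each gene as its only TSS this share was 12.1% (9.60 to 15.1%), and the genes numbered 119. Genes with a promoter touched by a member and by no other list made up 0.222% of the annotated genes, and 74 of them encode proteins. Within 2 kb of a member lay a TSS of 206 protein-coding genes, which is 0.938% of the 21951 annotated. The same share was 0.446% for LGE-alone, 2.2% for CTX-alone and 3.13% for MGE-alone intervals, whose numbers differ. For 91 protein-coding genes, or 0.415%, a member but no peak of another list lay within 2 kb of a TSS. Among the 260 members within 2 kb of a TSS, 47.7% had a nearest gene that also had a peak of another list within 2 kb of a TSS, and 44 had another CGE peak within 2 kb. The TSS with a peak of another list could be a different TSS of that gene, far from the member. A peak of another list lay within 2 kb of 67 of the 260 members (25.8%). For 109 of the 260 (41.9%) the nearest such peak was over 10 kb away. Each of the other lists had a peak within 2 kb of a TSS of 61.5 to 62.3% of all protein-coding genes.

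The strongest promoter members were at genes of varied function. The first by −log10 q was a 423-bp interval 210 bp upstream of a TSS of Ect2l. Its fold of 5.48 was the highest of the members, at a −log10 q of 13.2, and 63.8% of it was repeat-masked. No other list had a peak within 2 kb of an Ect2l TSS. The next was a 563-bp interval over a TSS of Cpeb4, which encodes an RNA-binding protein that controls translation, with a fold of only 2.00 at a −log10 q of 13.1. Every list had a peak within 2 kb of a Cpeb4 TSS, covering 2071 bp (CGE, 2 peaks), 1502 bp (LGE), 1264 bp (MGE) or 770 bp (CTX). The member there lay 1220 bp from the nearest peak of another list. Lgi1, which encodes a secreted synaptic protein, had an 1100-bp interval over a TSS with a fold of 4.23 at a −log10 q of 7.67. No peak of another list lay within 39069 bp of it. Plxdc1, a transmembrane receptor gene, resembled Cpeb4: its member was 445 bp wide with a fold of 1.86, and peaks within 2 kb of its TSSs covered 2274 bp (CGE), 1782 bp (LGE), 1785 bp (MGE) or 1805 bp (CTX).

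The other promoter members among the 20 with the highest −log10 q had values of 4.71 to 7.68. They were at Nr2f6, the lincRNA 3110006O06Rik, the kinase gene Dapk2, Hoxa4, the Rab regulator Tbc1d30, the pseudogene 1700030C10Rik, the ubiquitin ligase gene Mid1, the orphan receptor gene Gpr61, Arpp21, the ligand gene Bmp8b, Mctp1, the collagen gene Col22a1, the transporter gene Slc5a8, Pax6, Megf6 and Dlx1 with its antisense RNA Dlx1as. The 5 members at a promoter with the highest fold were those at Ect2l, Lgi1, Dapk2, Hoxa4 and Tbc1d30, with folds of 3.89 to 5.48. At Nr2f6, Arpp21, Pax6 and Dlx1 the folds were 2.03, 1.82, 1.78 and 1.45, under the members' median of 2.72. As at Cpeb4 and Plxdc1, another list also had a peak within 2 kb of a TSS of each of these 4 genes.

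Away from TSSs, the strongest member was a 310-bp interval 25781 bp from a TSS of Zbtb8b, a zinc finger gene, with a fold of 5.22 at a −log10 q of 12.2. It was followed by a 604-bp interval 5639 bp from a TSS of Nrtn, which encodes the growth factor neurturin, with a −log10 q of 11.8. The next 3 were nearest to Cotl1, an actin-binding protein gene, Qk, which encodes the RNA-binding protein quaking, and Mir5118, with a −log10 q of 9.08, 8.61 and 8.31. The 5 widest members were nearest to Gm27199 (3266 bp), Bhlhe23 (1968 bp), Tmem204 (1761 bp), Zcchc14 (1698 bp) and Efcab6 (1659 bp). Their −log10 q was low, from 1.70 to 3.65. Bhlhe23, which encodes a basic helix-loop-helix factor, was the only one of the 5 whose member covered a TSS.

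All 3 genes of the COUP-TF family had a TSS within 2 kb of a member (interval 43.9 to 100%), beside 0.938% of all protein-coding genes. The group was looked at after its values were seen. Nr2f2 marks the CGE and its interneurons, and Nr2f1 is graded across the telencephalon. Nr2f2 occupies positions 70351944 to 70366735 of chromosome 7 (minus strand). A 1220-bp member, with a fold of 1.72 at a −log10 q of 10.7, lay between 0.231 and 1.45 kb downstream of its 5′ end, also within 2 kb of the noncoding B130024G19Rik. Within 30 kb of the gene lay 2 further members, 596 and 243 bp wide, at 18.3 to 18.9 kb downstream and 15.1 to 15.3 kb upstream of the 5′ end. The 3 members added 2059 bp to a locus that the CGE list already covered widely. Within 30 kb of Nr2f2 the lists covered 20452 bp (CGE), 5743 bp (LGE), 5213 bp (MGE) and 2440 bp (CTX), so that the CGE list covered most. Over the whole genome the CGE list also covered most, with 23.5 Mb against 21.6 Mb (LGE), 17.1 Mb (MGE) and 16.7 Mb (CTX).

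Nr2f1 occupies positions 78188973 to 78199757 of chromosome 13 (minus strand), and 4 members lay within 30 kb of it. Inside the gene were a 396-bp member centred in an exon and a 268-bp member centred in an intron. They lay at 9.67 to 10.1 kb and 7.83 to 8.10 kb from the 5′ end, with a −log10 q of 4.33 and 1.82. The fold of 1.31 of the intronic member was the lowest of all members. Past the 3′ end were members of 458 and 1391 bp, the latter over a TSS of the lincRNA 3110006O06Rik. Within 30 kb of Nr2f1 the lists covered 14527 bp (CGE), 10710 bp (LGE), 7485 bp (MGE) and 5427 bp (CTX), and 2 intervals there were marked in MGE alone. Nr2f6, the remaining member of the family, had a 561-bp member over a TSS with a −log10 q of 7.68. That TSS was internal, as the member lay 5.70 to 6.26 kb downstream of the gene's 5′ end. Within 30 kb of Nr2f6 the lists covered 7253 bp (CGE), 6074 bp (LGE), 4496 bp (MGE) and 5476 bp (CTX). The CGE list covered most there, as it did over the whole genome. At all 3 genes every list had a peak within 2 kb of a TSS. The upstream member at Nr2f2 lay 12180 bp from the nearest peak of another list.

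**Figure D3:**
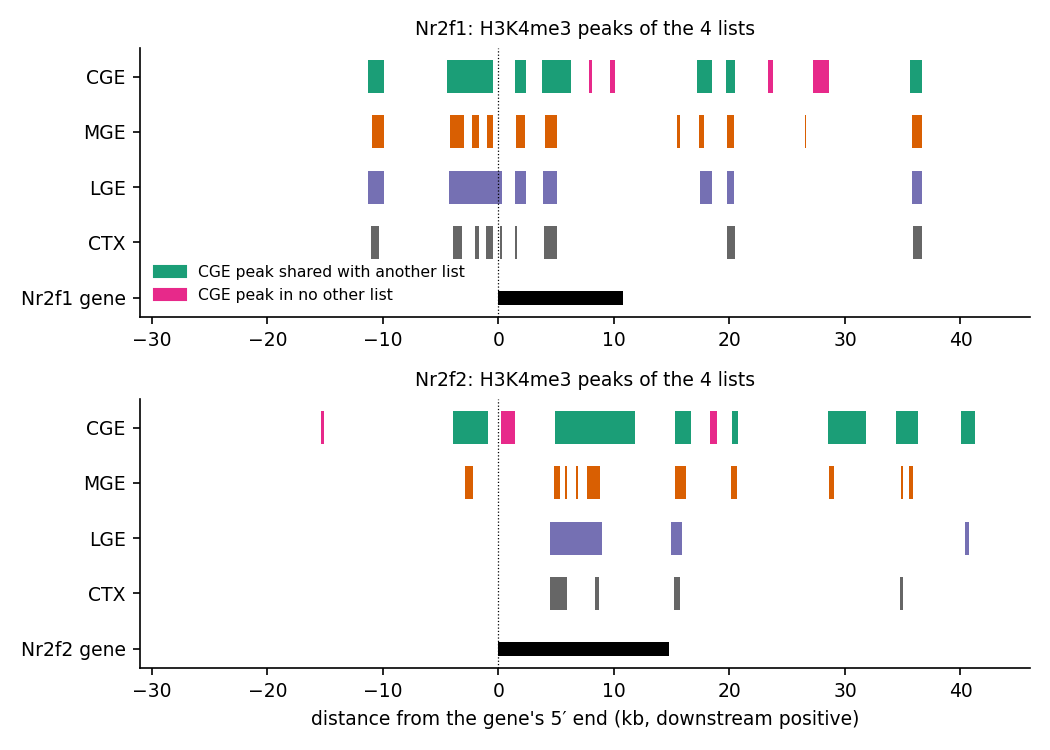
Bars show the peaks of the 4 lists by their distance in kb from the 5′ end of Nr2f1 (top) and Nr2f2 (bottom), with downstream positive, and black bars show the genes. The 4 members at Nr2f1 and the 3 at Nr2f2 (pink) are drawn beside the CGE peaks shared with another list (green), and the CGE list covers 14527 and 20452 bp within 30 kb of the genes.

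A few genes known to mark the forebrain regions were near members. Of 20 genes of the CGE and its interneurons, Nr2f1 and Nr2f2 had a TSS within 2 kb of a member. The counts were 1 of 21 for the MGE list, 1 of 20 for the LGE and striatum list and 2 of 20 for the cortex list. These genes were Sst, Isl1, Pax6 and Slc17a6. The shares of 4.76 to 10% stand beside 0.938% of all protein-coding genes and rest on 1 or 2 genes each. For the CGE, MGE, LGE and cortex genes in order, the counts were 0, 1, 2 and 2 for MGE-alone intervals. They were 0, 1, 0 and 0 for LGE-alone and 0, 0, 1 and 6 for CTX-alone intervals. The shares over all protein-coding genes were 3.13% (MGE), 0.446% (LGE) and 2.2% (CTX). Most region genes had a CGE peak, shared or not: 17 of 20 CGE genes, 20 of 21 MGE genes, 20 of 20 LGE genes and 19 of 20 cortex genes had one within 2 kb of a TSS, against 62.7% of all protein-coding genes. Of Nkx2-1, Lhx6, Neurod6, Dlx2, Nr2f1, Nr2f2, Emx1 and Lhx2, the region genes the study follows, members were found at Nr2f1 and Nr2f2 only.

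Sst encodes the neuropeptide somatostatin, which marks a class of interneurons that arise in the MGE. A 638-bp CGE peak began 16 bp downstream of its TSS, at chr16:23890305-23890942, with a fold of 3.62 at a −log10 q of 5.19. No other list had a peak within 2 kb of the TSS, and the nearest peak of another list was 57841 bp away. A peak that is missing from a list can lie under its threshold. The other neuropeptide genes with a member were Trh, which encodes thyrotropin-releasing hormone, and Avp, which encodes vasopressin. At Trh a 360-bp interval covered the TSS with a −log10 q of 2.23 and at Avp a 599-bp interval lay 1226 bp downstream of it with a −log10 q of 2.66. All 3 had no peak of another list within 2 kb of a TSS, as had 91 of all 206 protein-coding genes near a member. Sst, Trh and Avp were 3 of the 52 genes on the list of neuropeptides and their receptors (5.77%), beside 0.938% of all protein-coding genes. LGE-alone intervals were near 2 of the 52, MGE-alone near 1 and CTX-alone near 3. Their shares over all protein-coding genes were 0.446%, 3.13% and 2.2%.

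Genes of the amygdala, hypothalamus and thalamus, regions that border the CGE in the brain, included several near members. Of 29 such genes, 7 had a TSS within 2 kb of a member (24.1%, 12.2 to 42.1%), beside 0.938% of all protein-coding genes: Lhx1, Dbx1, Irx1, Barhl1, Hmx2, Trh and Avp. All but Trh and Avp are homeobox genes and are counted again in that group. The count was 1 for LGE-alone (3.45%), 2 for MGE-alone (6.90%) and 0 for CTX-alone intervals. The shares over all protein-coding genes were 0.446%, 3.13% and 2.2% in the same order. No other list had a peak within 2 kb of a TSS of Dbx1, Barhl1, Trh or Avp, while Lhx1, Irx1 and Hmx2 also had LGE and MGE peaks. The defining hypothalamic genes Otp, Sim1, Pomc, Agrp, Oxt, Hcrt and Pmch were not near a member, and 25 of the 29 genes had any CGE peak near a TSS. The part of tissue beside the CGE in these counts was not tested.

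Homeobox genes, which encode DNA-binding regulators of regional identity, formed the longest group of named genes. The list was drawn up by symbol after these values were seen. Of 202 homeobox genes, 27 had a TSS within 2 kb of a member (13.4%, 9.35 to 18.7%), where the share over all protein-coding genes was 0.938%. For LGE-alone intervals it was 11 of 202 (5.45%), for MGE-alone 13 (6.44%) and for CTX-alone 14 (6.93%), beside shares over all genes of 0.446%, 3.13% and 2.2%. The homeobox share was thus above the share over all genes in each of the 4 sets. With each list limited to 17284 peaks by highest fold, LGE-alone intervals were near 27 homeobox genes (13.4%) and CGE-alone intervals near 20 (9.90%). The shares over all protein-coding genes were then 1.17% and 0.998%. Without peaks under 500 bp the numbers were 23 for CGE (11.4%), 7 for LGE (3.47%), 2 for CTX (0.990%) and 0 for MGE. The shares over all protein-coding genes were then 1.46%, 0.542%, 0.364% and 0.323% in the same order.

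The homeobox genes near members included many that pattern other parts of the body or brain. The Hox genes, which pattern the hindbrain, spinal cord and trunk, gave 9 of 39 (23.1%): Hoxa4, Hoxa6, Hoxa9, Hoxa11, Hoxc6, Hoxc12, Hoxc13, Hoxd3 and Hoxd9. The LGE-alone intervals were near 5 Hox genes (12.8%), the MGE-alone near 2 (5.13%) and the CTX-alone near 0. The shares over all protein-coding genes were 0.938% (CGE), 0.446% (LGE), 3.13% (MGE) and 2.2% (CTX). The member at Hoxa4 was the strongest of those at Hox genes, 442 bp wide at a −log10 q of 6.47. That at Hoxd9 covered a TSS with 601 bp. Across the Hoxa cluster the CGE list held 6 peaks (2941 bp), LGE 2 (1237 bp), MGE 2 (594 bp) and CTX 1 (127 bp). Across the Hoxc cluster the CGE list held 4 peaks, LGE 3, MGE 1 and CTX 0. The Hoxb cluster went the other way in number, with 2 CGE and 4 LGE peaks.

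Outside the Hox clusters the homeobox genes included Barhl1, Bsx, Dbx1, Dlx1, Dmbx1, Evx1, Hmx2, Irx1, Isl1, Lbx1, Lhx1, Nkx1-1, Nkx2-2, Pax6, Prrxl1, Rax and Tlx2. Many of them are best known from the diencephalon, eye, hindbrain or spinal cord. Dlx1 and Pax6 are forebrain regulators with peaks in every list. Peaks within 2 kb of Dlx1 TSSs covered 4401 bp (CGE), 4003 bp (LGE), 2619 bp (MGE) or 1307 bp (CTX). Those at Pax6 covered 6463 bp (CGE), 5724 bp (LGE), 1062 bp (MGE) or 5534 bp (CTX). The CGE list covered most at both genes, as it did over the whole genome. Rax, a regulator of eye and hypothalamus development, had a 1381-bp member over a TSS and no peak of another list within 2 kb. Dmbx1 and Dbx1 had members of 669 and 327 bp over a TSS, with the nearest peak of another list 3358 and 2023 bp away. Of the 27 genes, 15 had no peak of another list within 2 kb of a TSS. The same held for 91 of all 206 protein-coding genes near a member. The 27 intervals at homeobox genes had a median width of 441 bp and a median −log10 q of 2.28, and 7 of them covered a TSS. Their strength was close to that of all members.

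**Figure D4:**
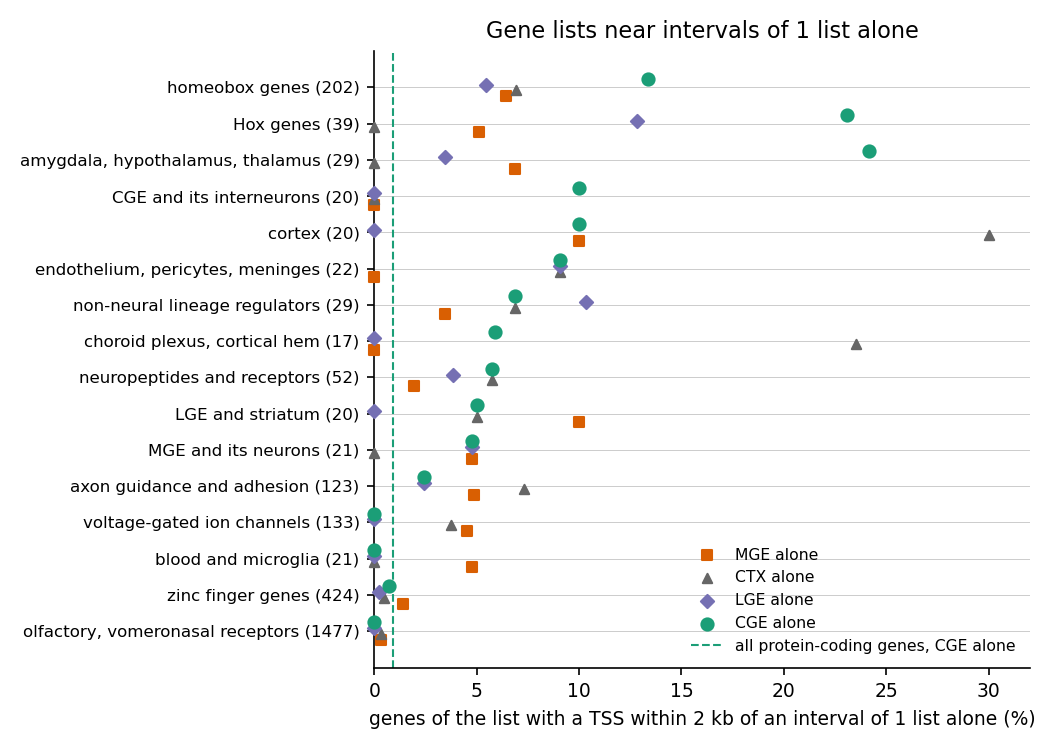
Points give the percentage of genes of each list (number of genes in brackets) with a TSS within 2 kb of an interval marked in 1 region alone, by region, and the dashed line gives 0.938%, the share of all protein-coding genes for CGE-alone intervals. CGE-alone intervals reach 24.1% of the amygdala, hypothalamus and thalamus genes, 23.1% of Hox genes and 13.4% of homeobox genes, which include the Hox genes.

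Members were seldom close to each other. Only 29 of the 547 fell into groups within 10 kb, 13 pairs and 1 group of 3. The group of 3 was at Gata2, which encodes a zinc finger factor of blood, midbrain and spinal cord development. Its members measured 476, 600 and 980 bp and had a −log10 q of 2.17, 1.99 and 1.38. Peaks within 2 kb of Gata2 TSSs covered 2056 bp (CGE), 313 bp (LGE), 185 bp (CTX) or 0 bp (MGE). Of the 13 pairs, some were at the regulators Pax6, Sim2, Skor1, Sox14, Runx3 and Tbx2 and at Nr2f1. The others were nearest to Mctp1, Traf7, Sybu with A930017M01Rik, Gm47065, B020031H02Rik and 3110006O06Rik. At Skor1 and Sox14 the nearest gene had no peak of another list within 2 kb of a TSS. Among the lists of other lineages, 2 of 29 master regulators of non-neural lineages (Gata2 and Myod1), 2 of 22 endothelial, pericyte and meningeal genes (Col1a1 and Foxc2) and 1 of 17 choroid plexus and cortical hem genes (Bmp4) were near a member. These shares of 6.90%, 9.09% and 5.88% stand beside 0.938% of all protein-coding genes. In the same order the counts were 3, 2 and 0 for LGE-alone, 1, 0 and 0 for MGE-alone and 2, 2 and 4 for CTX-alone intervals. The shares over all protein-coding genes were 0.446% (LGE), 3.13% (MGE) and 2.2% (CTX). None of 21 blood and microglia genes was near a member, which allows up to 15.5%.

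List genes whose promoters were touched by a member and by no other list also included the cadherin gene Cdh9, the NMDA receptor gene Grin2d and the zinc finger genes Zfp92, Zfp853 and Zfp972. At Cdh9 a 309-bp interval with a −log10 q of 2.77 covered a TSS and no other list had a peak within 2 kb. At Grin2d a 321-bp interval with a fold of 1.57 lay 104 bp upstream of a TSS, and another list had a peak within 2 kb. The zinc finger genes gave 3 of 424 (0.708%), near the 0.938% of all protein-coding genes. Of 133 voltage-gated ion channel genes, 95 histone genes and 1477 olfactory and vomeronasal receptor genes, 0 were near a member.

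The reference sequence under the members had fewer CpGs than that of CGE peaks shared by all 4 lists and more than that of MGE-alone and CTX-alone intervals. The measure was the number of CpGs over the number expected from the C and G content. Its median was 0.413 (0.380 to 0.434) in the members, 0.377 (0.351 to 0.407) in LGE-alone, 0.235 (0.228 to 0.244) in CTX-alone and 0.207 (0.202 to 0.213) in MGE-alone intervals. In CGE peaks of intervals shared by all 4 lists it was 0.666 (0.662 to 0.669). A value over 0.6 was found for 140 members (25.6%, 22.1 to 29.4%), against 64.8% of those shared peaks. CGE peaks in intervals of 2 or 3 lists were close to the members, with a median of 0.446 (0.433 to 0.458) and 27.1% over 0.6. The members within 2 kb of a TSS had a median of 0.477 (0.441 to 0.524) and those farther away 0.359 (0.324 to 0.391). In the CGE peaks shared by all 4 lists the same medians were 0.683 and 0.464. Of those peaks 88.4% lay within 2 kb of a TSS, against 47.5% of the members. Members differ from shared peaks in width, and the central 300 bp gave a median of 0.420 in the members and 0.738 in the shared peaks. The median GC content was 55.3% in the members and 58.8% in the shared peaks. Among the stretches printed above, the ratio was highest at Trh (0.918) and lowest at Barhl1 (0.391). The whole Barhl1 interval had a ratio of 0.481, above the members' median. Over all members the ratio ran from 0 to 1.19.

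**Figure D5:**
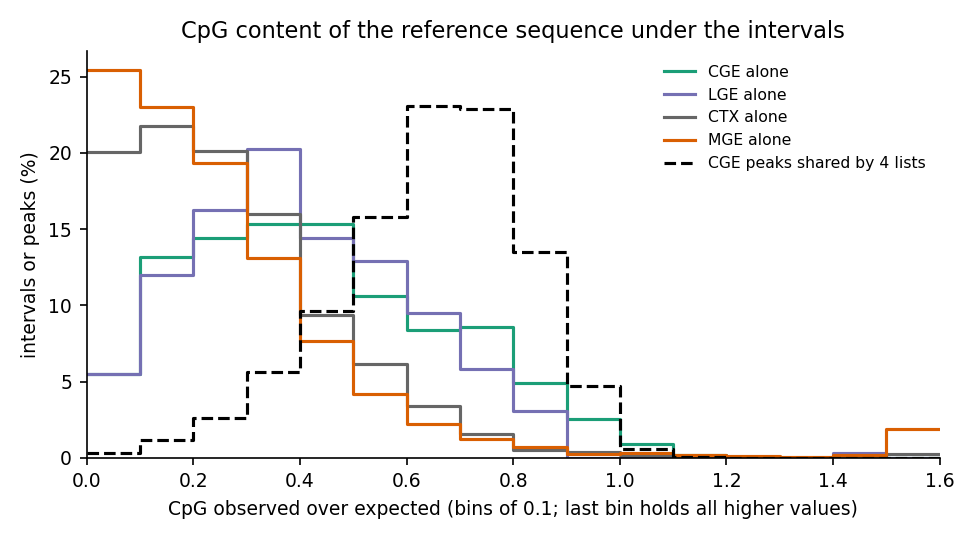
Lines give the percentage of intervals or peaks in bins of the ratio of observed to expected CpGs in the GRCm38 sequence. CGE-alone intervals (median 0.413) lie between the MGE-alone and CTX-alone intervals (0.207 and 0.235) and the CGE peaks shared by 4 lists (0.666), and LGE-alone intervals (0.377) lie close to them.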

How the data were processed

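The authors aligned CUT&Tag reads with Bowtie2 to GRCm38/mm10, removed blacklisted reads and, with Picard, PCR duplicates, merged replicates with SAMtools and called broad peaks with MACS, whose version, threshold and control are not given in the sources used here. The deposited lists have 9 columns. The authors' fold is a ratio to the local background, and the deposited −log10 q and score (about 10 times the −log10 q) come from the same caller. The score and the −log10 p were not used. The 12 libraries fall into 4 regions, and each list pools those of its region.

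Unions, distances, promoter overlaps and CpG ratios were computed in Python 3.11.15 (numpy 2.4.6, pandas 2.3.3, scipy 1.17.1, matplotlib 3.10.9) with GENCODE M21 genes and every annotated TSS. The computations were checked against base-by-base counts on simulated intervals. The homeobox list, the 30-kb windows at COUP-TF genes and the settings compared between lists were added after values were seen. Genes were named by strength (20 by −log10 q and 5 by fold at promoters, 5 far from TSSs), width (5), membership of a gene list with a promoter free of other lists, 3 or more members per gene, or closeness to the limits of the rule. Other genes were named after their values were seen. Members and gene lists were chosen with earlier results of these data known. Single replicates, H3K27ac, H3K27me3, accessibility and expression were not analysed here, and 1 gene and 1 motif are not reported here.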

Additional observations from a re-analysis of the deposited data

How the results depend on the processing

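Each region has 1 merged list, so leaving out a replicate was not possible. No paired analysis was possible because each region had 1 list made from both replicates. An absent peak can lie under the threshold of its list, and depth, narrowest called width and region cannot be told apart. Of 72 alternative values for 7 results, 43 stayed within 1.5 times (counts) or inside the 95% interval of the reported value (shares and medians), and 29 moved further. The promoter genes are given here as a percentage of the 55450 annotated genes, 0.355% as reported. Requiring at least 1 shared base, joining peaks under 1 kb apart and autosomes only moved none of the 7. The cause of the moves was not tested, apart from what each setting's construction shows.

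With a −log10 q of at least 2 in every list the median width was 437.5 bp and the median CpG ratio 0.446. With at least 5 in the CGE list alone, 45 members were left, 55.6% within 2 kb of a TSS and 33.3% at a protein-coding promoter, with a median width of 458 bp, a median TSS distance of 1007 bp and 0.0343% of genes. Equal list lengths by highest fold gave 40.0% within 2 kb, 22.1% at a protein-coding promoter and 4428.5 bp, and by highest −log10 q 41.4% and 3596 bp. Without peaks under 500 bp, 30.3% lay at a protein-coding promoter, the median width was 646 bp, the genes made up 0.613% and the CpG ratio was 0.443. Gene 5′ ends only gave 32.4% within 2 kb, 5975 bp, 12.1% at a protein-coding promoter and 0.215% of genes, and protein-coding genes only 37.7% and 5221 bp. Windows of 1 and 5 kb gave 39.7% and 62.9% near a TSS. Promoters of 1 kb either side of the TSS gave 31.1%, and genes with promoters free of other lists made up 0.222%. The CpG ratio was 0.477 within and 0.359 beyond 2 kb of a TSS, a split chosen after seeing the data.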

Other observations

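Short sequence motifs were counted on both strands in the central 300 bp of the CGE-alone intervals, with each motif searched on its own, so that matches of different motifs may overlap. The GC box GGGCGG of Sp factors was in 133 of 547 windows (24.3%, interval 20.9 to 28.1%). It was in 49.3% of the windows of CGE peaks shared with 1 or more lists, 21.5% of LGE-alone, 11.3% of CTX-alone and 9.02% of MGE-alone windows. AGGTCA, the site of COUP-TFs and other nuclear receptors, was in 12.6% (10.1 to 15.7%) of the CGE-alone windows and 11.6% of the shared CGE windows, and in 14.3 to 16.6% of the windows of the other sets. The homeodomain motif TAATTA was in 5.48% (3.87 to 7.72%) of CGE-alone and 15.1% (14.0 to 16.3%) of CTX-alone windows, with 5.29% in MGE-alone, 6.13% in LGE-alone and 2.96% in shared CGE windows. The E-box CATCTG of neurogenins was in 17.0% of CGE-alone and 12.8% of shared CGE windows, with 23.0% in MGE-alone, 20.6% in LGE-alone and 22.5% in CTX-alone windows. CCAAT was in 26.7% of CGE-alone and 23.2% of shared CGE windows, with 26.1%, 23.9% and 34.2% in the same order. The TATA box TATAAA was in 6.40% and 4.43%, with 8.47%, 9.20% and 8.77%. GCGCATGC, the core of the NRF1 site, was in 0.914% and 1.81%, with 0.686%, 0.613% and 0.644%. A match is a run of letters and not a bound site.

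Repeats made up little of most members. The repeat-masked share had a median of 7.04% (6.08 to 7.79%) in the CGE-alone intervals, 6.44% in LGE-alone, 6.56% in CTX-alone and 12.3% (11.5 to 13.0%) in MGE-alone intervals, and 23 members were masked over at least 50% of their length. Among the remaining gene lists, 3 axon guidance and cell adhesion genes had a TSS within 2 kb of a CGE-alone interval (Cdh9, Cntnap5b and Sema3g, 2.44% of that list). The same held for 1 of 56 clustered protocadherins (Pcdha7), 1 of 47 GABA and glutamate receptor genes (Grin2d) and 0 of 12 Bex and Tceal genes. The share over all protein-coding genes was 0.938%.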
